A study of Mus musculus with 2 samples.

Results

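Integrins are paired surface receptors, each made of an alpha and a beta chain, that bind cells to other cells and to the matrix around them. On a resting T cell they hold ligand weakly. Signals from the T cell receptor and from chemokine receptors switch the small GTPase Rap1 on, and its effectors bring talin and kindlin to the tail of the beta chain, which turns the receptor to a high affinity state. This route is called inside-out activation, and in T cells it governs arrest on vessel walls and contact with antigen presenting cells.

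The genes described here are the integrin chains, the proteins that activate them from inside the cell and a pair of ICAM ligands. They were chosen by gene symbol, from probe sets annotated to a single gene, as an alpha or beta chain or as 1 of the named activators, adaptors and ligands. The rule took 84 probe sets for 37 genes, out of 45037 probe sets and 18193 named genes in all. Of the members 16 were alpha chains, 8 beta chains, 11 activators or adaptors and 2 ICAM ligands. Itga2b, the alphaIIb chain, was counted as an alpha chain. The genes Itgad, Itga11 and Fermt1 also fall under the rule and were not analysed here.

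RNA came from mouse 5cc7 T cells, whose receptor recognises the MCC peptide of moth cytochrome c, at 5 days after the cells were stimulated with that peptide in culture. The sample titles call them blasts, a term for large cycling cells that have responded to antigen. Cell size and cycling were not examined here. The RNA was read on 2 Affymetrix mouse 430 2.0 arrays, called set 1 and set 2 here. Both belong to 1 group, so there was no resting, unstimulated or untreated group, and the labels give no age, sex or further genotype of the animals and no purification of the cells. No label ties each array to a culture of its own, and their spread may thus be technical only. The question left by this design is which integrin genes were detectable in the blasts and how alike the 2 arrays were.

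Values are the deposited intensities on a linear scale, given for each array or as their mean ± SD (n = 2). Median intensity over all probe sets was 36.4 on set 1 and 37.9 on set 2. Above background here means brighter, on each array, than the 95th percentile of probe sets for genes of liver, eye, pancreas and kidney. This bound was 102.95 for set 1 and 111.95 for set 2. A gene was called by at least 1 probe set, and its brightest probe set gave its level. Probes differ in how well they bind, so a level is read against the bound and not against that of another gene, and a gene not above background may still be transcribed at a low level. In a bulk sample, fewer cells of a type and less RNA per cell cannot be told apart. Of 11 measured genes that define T cells, among them the CD3 chains and Cd4, 11 were above background.

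Of the 37 member genes 21 were above background (56.8%), where the share over all named genes was 34.9%. By probe set the count was 34 of 84 (40.5%) against 25.3% of all probe sets. The latter share includes probe sets with no symbol or several, which the rule could not take. Of integrin chain probe sets 15 of 54 (27.8%) were above background, near the share of all probe sets. Of those for activators and adaptors it was 18 of 28 (64.3%), and for ICAM ligands 1 of 2. Among the activators and adaptors 9 of 11 genes were above background, among alpha chains 6 of 16 (37.5%, near the share of all genes), among beta chains 5 of 8, and of the ICAM ligands 1 of 2. A gene with more probe sets has more chances to be called. Of genes with 1 probe set, 4 of 13 members were above background against 21.7% of all such genes, with 2 probe sets 8 of 11 against 40.3%, and with 3 or more 9 of 13 against 57.1%. These shares describe the arrays and were not tested, since genes are not replicates.

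The stretch of 250 bases before the gene start was read for 26 of the 37 member genes, which had 29 such windows among the 32851 of the RefSeq promoter table of build GRCm38.p6. The window is printed in the direction of transcription for 4 members on either side of the detection call. These 4 are examples and do not stand for either side, so no contrast in motifs can be read from them. Fermt3, Itga4 and Itgb7 were above background and Itgam was not. Capitals mark TGTGGT, the core of the RUNX motif, or GAGGAA, an ETS-type core, on either strand.
Fermt3, chr19:7019470-7019719, minus strand: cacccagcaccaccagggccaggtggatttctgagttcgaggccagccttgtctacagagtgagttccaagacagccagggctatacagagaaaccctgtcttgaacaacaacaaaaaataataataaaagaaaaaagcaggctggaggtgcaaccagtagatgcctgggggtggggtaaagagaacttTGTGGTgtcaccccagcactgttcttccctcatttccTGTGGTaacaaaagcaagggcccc
Itga4, chr2:79255176-79255425, plus strand: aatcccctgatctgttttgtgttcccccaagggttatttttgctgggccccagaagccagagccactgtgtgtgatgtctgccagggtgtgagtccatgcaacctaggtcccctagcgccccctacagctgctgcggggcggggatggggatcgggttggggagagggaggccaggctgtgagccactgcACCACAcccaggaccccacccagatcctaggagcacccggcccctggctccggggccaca
Itgb7, chr15:102231936-102232185, minus strand: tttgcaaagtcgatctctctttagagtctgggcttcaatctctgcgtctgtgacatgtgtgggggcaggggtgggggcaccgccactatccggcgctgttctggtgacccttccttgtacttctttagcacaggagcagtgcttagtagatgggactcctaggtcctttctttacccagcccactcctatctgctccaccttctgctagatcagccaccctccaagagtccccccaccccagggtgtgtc
Itgam, chr7:128062390-128062639, plus strand: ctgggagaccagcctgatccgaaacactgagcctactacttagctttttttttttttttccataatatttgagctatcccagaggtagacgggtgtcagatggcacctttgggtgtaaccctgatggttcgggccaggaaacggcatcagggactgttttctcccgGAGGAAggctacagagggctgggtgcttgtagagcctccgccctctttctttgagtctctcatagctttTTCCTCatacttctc

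In Fermt3 the letters TGTGGT occurred at 2 places, whose first bases lay 61 and 24 bases before the gene start. Itga4 held 1 match on the opposite strand, 60 bases before its start. Itgb7 held neither motif in this window. Itgam held GAGGAA at 84 bases and its reverse complement at 15 bases before the start, and no TGTGGT. Over the members, TGTGGT was found in 5 of 29 windows, near the share of 14.0% over all windows of this length, and 2 of the 5 were overlapping windows of Ilk that hold the same match. GAGGAA was found in 10 of 29 windows, where the share of all was 23.3%. The GC box GGGCGG was found in 12 of 29 windows (32.7% of all) and the TATA box TATAAA in 0 of 29 (12.4% of all). A match here is a match of letters and says nothing of binding.

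The beta2 integrins are the leukocyte family, and their best known member on T cells is LFA-1, the pair of Itgal and Itgb2 that binds ICAM ligands. Both of its chains were above background. Itgam and Itgax, which myeloid cells pair with Itgb2, were not, each by 1 probe set, and Itgad was not analysed. Itgal read 2436.9 on set 1 and 2220.6 on set 2 (2329 ± 153), and its second probe set read 1033.3 and 1066.5. Itgb2, the shared beta chain, read 1659.3 and 1566 (1613 ± 66.0). Each LFA-1 value stood far above the bound on either array. Itgam, the alpha chain of the complement receptor Mac-1, read 10.2 and 11.2 (10.7 ± 0.71), or 0.10 times the bound of either array. Itgax, the CD11c chain of dendritic cells, read 22.9 and 31.6 (27.3 ± 6.15). Neither chain approached the bound on either array, and of 18 further marker genes of macrophages and dendritic cells 0 were above background.

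The alpha4 and beta7 chains form the receptors for VCAM-1, for the gut addressin MAdCAM-1 and, with alphaE, for E-cadherin on epithelium. All 3 genes of this group were above background. Itgb7, measured by 1 probe set, read 1707.4 and 1480.2 (1594 ± 161). Itgae, the CD103 chain of intraepithelial T cells, read 341.8 and 369.7 (355.8 ± 19.7), and its other probe set read 182 and 178.6. The brighter one is of a kind whose probes can bind more than 1 transcript (_s_at), and without such probe sets the level of Itgae was 180.3. The alphaE and beta7 calls did not rest on a choice among probe sets. For Itga4 it did. Its brightest probe set read 316.2 and 341.5 (329 ± 17.9), while the other 4 averaged between 4.6 and 92.35 and all stayed under the bound. With the median over probe sets as the level, Itga4 was not above background.

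Itgb1 is the beta chain shared by the receptors for collagen, laminin and fibronectin. It was measured by 6 probe sets, of which 2 were above background. The brightest read 338 and 320.3 (329 ± 12.5) and the other 323.2 and 275.8. The remaining 4 read no more than 29.7 on either array. Under the median over probe sets the call for Itgb1 was lost as well.

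Of the 9 measured alpha chains that pair mainly with Itgb1 in this group, 2 were above background. Itga6, a laminin receptor chain, read 245.7 and 304.6 (275.2 ± 41.6), and its second probe set read 129.4 and 120.9. Both of its probe sets exceeded the bound on both arrays. Itga3, another laminin receptor chain, read 103.5 and 112.2 (108 ± 6.15), which is 1.005 and 1.002 times the bounds. It is the member that cleared the bound most narrowly, and its other 2 probe sets averaged 5.5 and 42.95. Its call ended with the bound at the 99th percentile, so Itga3 was only weakly distinguished from background.

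The other alpha chains of beta1 were not above background. Itga5, which with beta1 is the main fibronectin receptor, was measured by 4 probe sets and its brightest read 25.8 and 24.1 (24.95 ± 1.20). The collagen receptor chains Itga1 and Itga2 were at 4.7 ± 0.71 and 49.4 ± 7.99, and Itga10, another collagen receptor chain, was at 55.8 ± 3.82. Itga7, a laminin receptor chain of muscle, was at 70.4 ± 2.97. Itga8 and Itga9, chains for matrix ligands such as nephronectin and tenascin, were at 20.95 ± 1.06 and 19.6 ± 1.84. Of these 7 genes Itga1, Itga5, Itga8 and Itga9 stayed under the bound in every setting that was run, whereas Itga7 exceeded the bound at the 90th percentile, and Itga2 and Itga10 exceeded the median of all probe sets.

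Itgav pairs with several beta chains to bind vitronectin and latent TGF-beta. Its brightest probe set read 664.9 and 721.8 (693 ± 40.2), and the other 4 averaged between 17.2 and 70.5. The call for Itgav therefore rested on 1 of 5 probe sets. Itgb3, the beta chain of the vitronectin receptor and of the platelet fibrinogen receptor, read 289.6 and 221 (255.3 ± 48.5), and its other probe set read 56.2 and 46.5. Its log2 difference, set 2 against set 1, was -0.41, the lowest among the members above background. Itga2b, the platelet partner of Itgb3, read 67.2 and 93.6 (80.4 ± 18.7) and was not above background, although it was with the bound at the 90th percentile. None of 10 further platelet genes was above background.

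Itgb5 gave the least settled value. Its brightest probe set, whose identifier ends in _x_at, read 174 on set 1 and 382.4 on set 2 (278 ± 147), and this suffix marks probes that can bind more than 1 transcript. The other 3 probe sets of Itgb5 averaged between 13.65 and 26.9. Without probe sets of the shared kind, Itgb5 was not above background. The remaining beta chains were low. Itgb4, the laminin receptor chain of epithelial hemidesmosomes, was at 4.95 ± 1.48, Itgb6, an epithelial partner of alphaV, at 11.5 ± 11.2 and Itgb8, which with alphaV frees active TGF-beta, at 3.45 ± 3.61. These 3 genes stayed under the bound in every setting run.

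**Figure D1:**
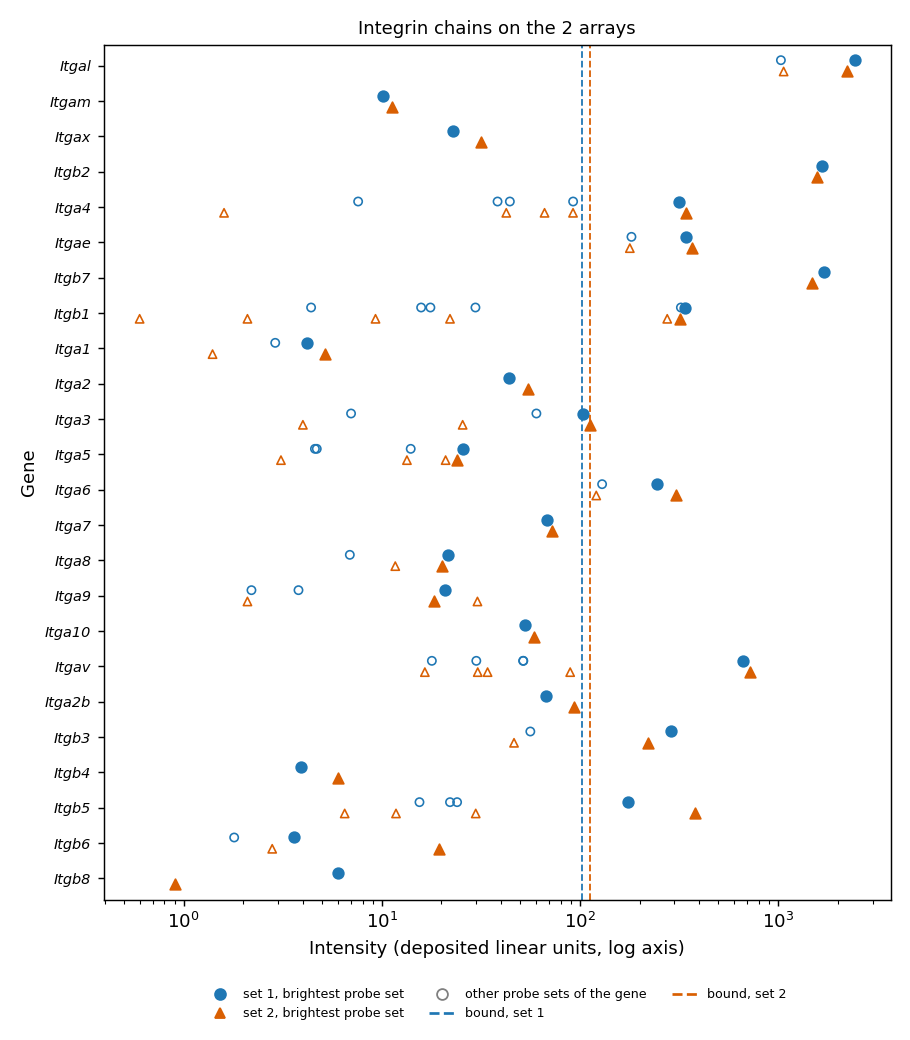
Intensity of every integrin chain probe set on set 1 (blue circles) and set 2 (orange triangles), 1 row per gene on a log axis, with filled symbols for the brightest probe set and dashed lines at the background bounds of 102.95 and 111.95. The brightest probe sets of Itgal, Itgb2 and Itgb7 lie at more than 10 times the bounds on both arrays, Itga3 lies on the bounds, and Itga4, Itgav, Itgb1 and Itgb5 have probe sets on both sides.

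An integrin reaches the cell surface only as a pair of chains, so the calls were also read by pair. Of 24 pairs known in mammals 22 had both chains measured, and in 9 of these both were above background. They were Itgal with Itgb2, Itga4 and Itgae with Itgb7, Itga3, Itga4, Itga6 and Itgav with Itgb1, and Itgav with Itgb3 and with Itgb5. In 10 pairs the beta chain alone was above background, 7 of them beta1 pairs, and in 3 the alpha chain alone was (Itga6 with Itgb4, Itgav with Itgb6 and with Itgb8). No measured pair had both chains under the bound. The 22 pairs share chains and are not independent of each other. With the median over probe sets as the level the count fell to 2, which were Itgal with Itgb2 and Itgae with Itgb7. RNA of both chains does not show that a pair was made.

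**Figure D2:**
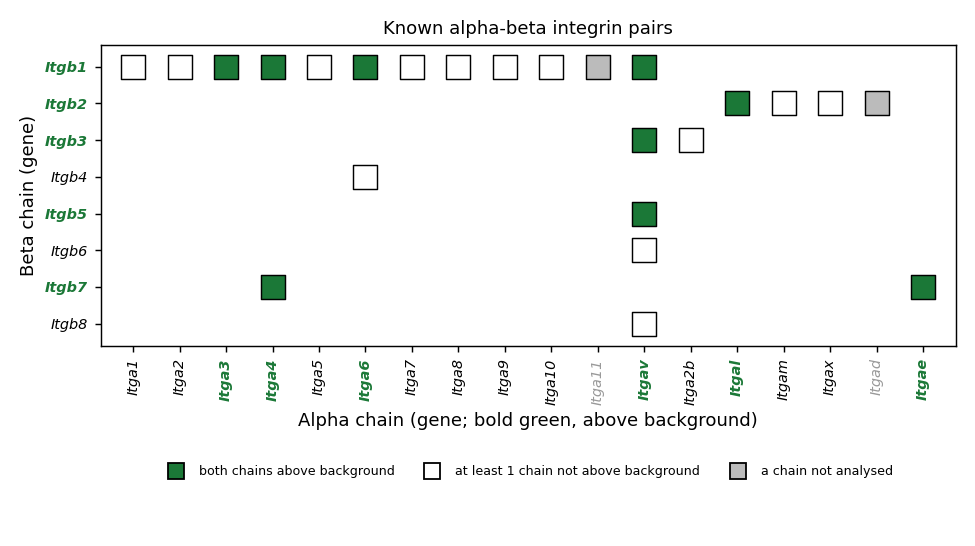
The 24 known alpha-beta pairs by alpha chain (across) and beta chain (down), with gene names in bold green where the gene was above background. Filled green squares mark the 9 pairs with both chains above background, white squares the 13 with at least 1 chain not above it, and grey squares the 2 with a chain not analysed.

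Talin and kindlin bind the beta chain tail and are the last step of inside-out activation. In each family the form known from blood cells was above background and the other measured form was not. Tln1 read 760 and 766.4 (763 ± 4.53), with its other 2 probe sets averaging 30.75 and 71.6, so that its call was lost under the median over probe sets. Tln2, the talin of muscle and brain, was measured by 3 probe sets and its brightest read 5.3 and 7.9 (6.6 ± 1.84). Fermt3, the kindlin of blood cells, was above background by 4 of 4 probe sets, the brightest reading 2257 and 2396.7 (2327 ± 98.8) and the others averaging from 225 to 860. The brightest is of the shared kind (_s_at), and without such probe sets the level of Fermt3 was 859.7. Fermt2, the kindlin of most adherent tissues, read 48.7 and 48.1 (48.4 ± 0.42) at its brightest. Ilk, a pseudokinase that links integrins to actin through parvin, read 401.2 and 370.4 (385.8 ± 21.8).

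Rap1 and its effectors were above background in 4 of 4 genes and 8 of 9 probe sets. Rap1a read 1891.4 and 1960 (1926 ± 48.5) and Rap1b read 2787.3 and 2929.2 (2858 ± 100), with every probe set of either gene above the bound. Rap1a and Rap1b encode near-identical GTPases, and whether their probe sets bind each other's transcripts was not tested. Rassf5 encodes RAPL, the effector that binds active Rap1 and the LFA-1 alpha chain, and read 1262.6 and 1325.3 (1294 ± 44.3). Its second probe set gave 1053.5 and 1054.7. The brighter one is of the shared kind (_s_at), and without such probe sets the level of Rassf5 was 1054.1. Apbb1ip encodes RIAM, which links Rap1 to talin, and read 147.4 and 158.5 (153 ± 7.85). The second probe set of Apbb1ip read 66.6 and 44.2, under the bound, and its call was lost under the median over probe sets.

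Skap1 and Fyb encode SKAP55 and ADAP, the adaptor pair that ties the T cell receptor to Rap1 and RIAM. Fyb read 1945.1 and 1967.1 (1956 ± 15.6) and by its second probe set 995.2 and 1232.3, and both stood above the bound. Skap1 read 813 and 715.5 (764.3 ± 68.9). Of its other probe sets 1 read 139.2 and 164.8, and the last, at 99.2 and 102.2, was just under the bound.

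ICAM ligands let T cells bind LFA-1 on each other. Icam2 read 316.4 and 298.6 (307.5 ± 12.6) and was above background. Icam1, whose product is the stronger ligand of LFA-1 and is induced by activation in many cells, read 103.4 and 102.2 (103 ± 0.85). It exceeded the bound on set 1 and not on set 2, and was above background with the bound taken at the 90th percentile or from other organs. Just inside the bound lay Itga3 and the second probe set of Itga6, and just outside it Icam1, the last of Skap1 and a probe set of Itga4 at 92.4 and 92.3.

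**Figure D3:**
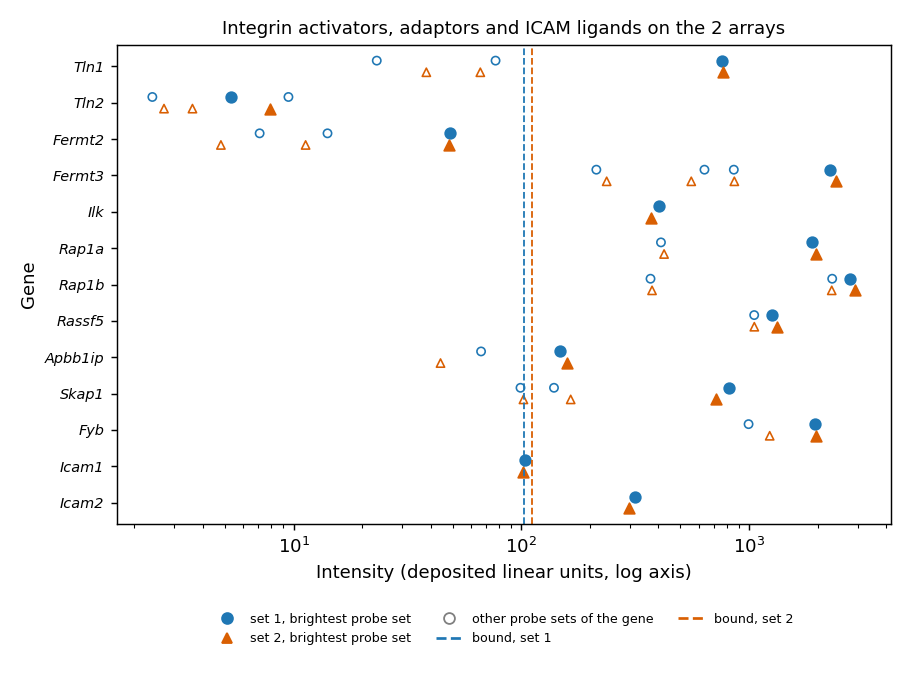
Intensity of every probe set of the activators, adaptors and ICAM ligands on set 1 (blue circles) and set 2 (orange triangles), 1 row per gene on a log axis, with filled symbols for the brightest probe set and dashed lines at the background bounds. Tln2 and Fermt2 lie wholly under the bounds, all 4 probe sets of Fermt3 and all 3 of Rap1b lie over them, and Icam1 lies on them.

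The 2 arrays gave like values for members above background. Over these 34 probe sets the median difference, taken on the log2 scale as set 2 minus set 1 and centred on the median of all probe sets above background, was 0.00017, with 17 above 0 and 17 below. The SD of the difference was 0.25, beside 0.20 for all 11400 probe sets above background. The median absolute difference went the other way, at 0.097 for the members beside 0.114 for all. Itgb5 was the 1 member that differed by more than 1.5-fold, 2.17-fold higher on set 2 (log2 difference 1.12). Of all probe sets above background 1.26% differed by this much, 1.00% higher on set 2 and 0.263% lower. After Itgb5 the members most above on set 2 were a probe set of Itga6 (log2 difference 0.29) and the second of Fyb (0.29). Those most below were Itgb3 (-0.41), a probe set of Itgb1 (-0.25) and Itgb7 (-0.23). Among the 50 member probe sets not above background the SD was 1.12, beside 0.98 for all 33637 such probe sets. Of the 50, 22 differed by more than 1.5-fold, 9 higher on set 2 and 13 lower. Of the 33637, 6801 were higher on set 2 by this much and 6229 lower. No difference between arrays can thus be read from these low values.

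**Figure D4:**
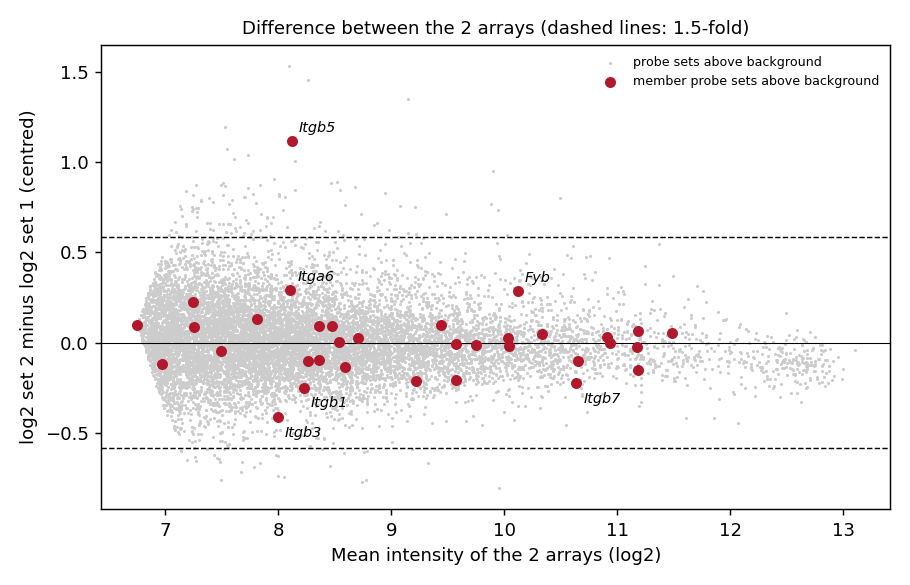
Centred log2 difference between set 2 and set 1 against the log2 of the mean intensity for the 11400 probe sets above background (grey) and the 34 of them that are members (red), with dashed lines at 1.5-fold. The Itgb5 probe set lies at 1.12, and the other 33 members lie within the dashed lines.

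Of 24 member genes with several probe sets 8 had all of them above background, 9 only some and 7 none. The same split over all genes of the arrays was not counted, so these counts are not read as particular to the members. The 8 were Fermt3, Fyb, Itga6, Itgae, Itgal, Rap1a, Rap1b and Rassf5. The 9 split genes were Apbb1ip, Itga3, Itga4, Itgav, Itgb1, Itgb3, Itgb5, Skap1 and Tln1. Of member probe sets designed on a RefSeq transcript 8 of 25 were above background, near the 32.9% of all such probe sets, and of those on another GenBank sequence 21 of 49, where the share of all was 26.8%.

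The wider pathway was read through 5 gene lists, in which 55 of 104 measured genes other than the members were above background, against 34.9% of all named genes. The lists were not split by the number of probe sets per gene, which raises the chance of a call, so this share is only a rough measure for them. Rap1 is loaded by exchange factors and unloaded by GTPase activating proteins. The list for this switch also held adaptors (Crk, Crkl), protein kinase D genes, the related Rap2 GTPases and Rap1gds1. Of its 26 measured genes 16 were above background, and exchange factors and GTPase activating proteins were not counted apart. Rapgef6, an exchange factor, was at 1146 ± 44.3, and Rasgrp1, a diacylglycerol-regulated exchange factor that acts mainly on Ras, at 1047 ± 7.64. Prkd2, a protein kinase D, was at 1096 ± 73.2, and Rasa3, which inactivates Ras and Rap1, at 574.9 ± 130. Rasgrp2, the calcium-regulated exchange factor of Rap1, was at 316.7 ± 17.7 and Sipa1, an inactivator of Rap1, at 161 ± 4.60, both chosen after their values were seen. Dock4, Prkd1, Rap1gap and Rap1gap2 were not above background, at 48.3 ± 10.7, 22.3 ± 1.27, 84.95 ± 24.96 and 64.3 ± 5.02.

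Partners of RAPL, RIAM, SKAP and ADAP were above background in 15 of 18 cases. Stk4, the kinase MST1 that acts with RAPL, read 2073.2 and 2193 (2133 ± 84.7), and Lcp2, the adaptor SLP-76 that binds ADAP, was at 1170 ± 3.18. Evl, an actin regulator that binds RIAM, was at 1918 ± 52.4. Cytip, which binds the LFA-1 regulator cytohesin-1, was at 4027 ± 165. All 4 stood far over the bound on each array. Under the bound were Enah at 34.2 ± 8.41, Kif14 at 4.85 ± 3.46 and Mob1b at 81.0 ± 8.20.

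Of the tail binders and focal adhesion proteins 12 of 23 were above background. Flna, a filamin that competes with talin for the beta tail, was at 946.6 ± 17.3, the actin crosslinker Actn1 at 833 ± 31.9, the adhesion adaptor Pxn at 723 ± 42.9 and the kinase Csk, which restrains Src family kinases, at 586.9 ± 5.37. Parvins and PINCH proteins bind ILK. The leukocyte parvin Parvg was at 472.3 ± 2.19 and the PINCH gene Lims1 at 514 ± 45.0, while Parva, Parvb and Lims2 were at 5.25 ± 6.29, 22.2 ± 23.1 and 8.4 ± 2.69, not above background. Vcl, the vinculin gene whose product binds talin under load, read 74 and 76.1 (75.1 ± 1.48) and was not above background either. The parvins, Lims1 and Vcl were chosen after their values were seen. Kank1, Kank2 and Myo10 were not above background, at 14.1 ± 1.48, 50.8 ± 21.8 and 94.3 ± 11.2.

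Genes listed as inhibitors of integrin activation were above background in 12 of 13 cases. They included Cblb, a ubiquitin ligase that restrains T cell activation, at 2043 ± 147, the phosphatase gene Ptpn22 at 1421 ± 36.8 and Arap2 at 1260 ± 32.8. Cd47, an integrin-associated surface protein that is no plain inhibitor, was at 3137 ± 115. Sharpin and Itgb1bp1, whose products hold integrin tails inactive, were at 417.7 ± 12.5 and 219 ± 4.45, chosen after their values were seen. Mdga1 was the exception, at 11.7 ± 4.17.

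Ligand genes other than Icam1 and Icam2 were above background in 1 of 25 cases, below the 34.9% of all named genes. The exception was Tgfb1, whose latent form alphaV integrins bind, at 470.2 ± 27.4. Cdh1, the E-cadherin that alphaE-beta7 binds, was at 11.95 ± 6.72, and the collagen genes Col1a1 and Col4a1 were at 24.6 ± 5.52 and 32.4 ± 12.4. Vcam1 and Madcam1, the ligands of the alpha4 integrins, were at 43.4 ± 0.57 and 39.5 ± 6.72, chosen after their values were seen.

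**Figure D5:**
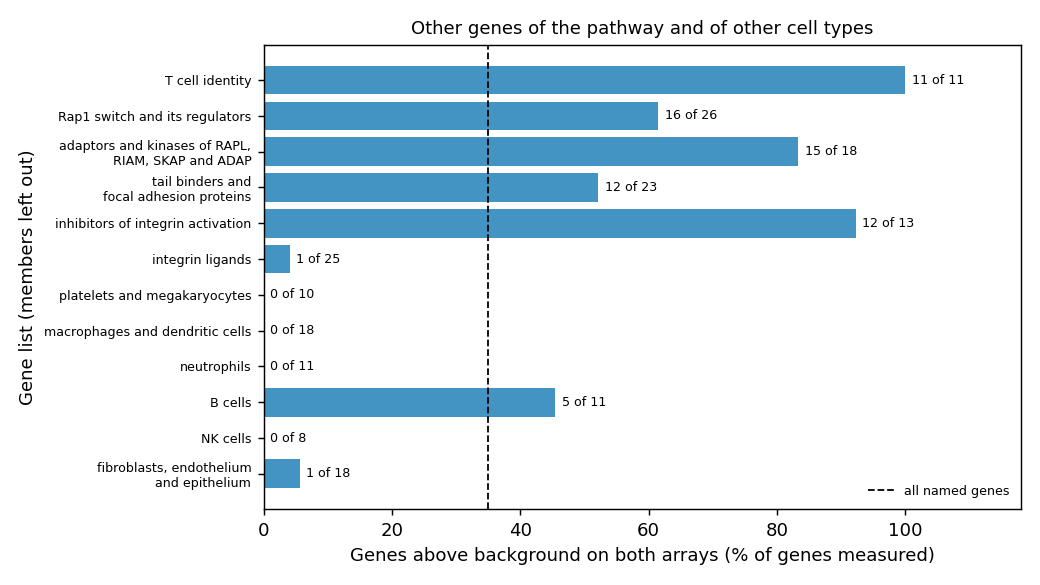
Share of measured genes above background on both arrays in each gene list, with members left out and counts beside the bars; the dashed line is the 34.9% of all named genes. The T cell, RAPL and RIAM partner and inhibitor lists exceed 80%, and the ligand list and all lists of other cell types but that of B cells lie below the line.

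Integrin chains are shared with other cells of the blood and of solid tissues, so markers of these were read as well. Of 76 such genes other than members 6 were above background, against 34.9% of all named genes and 21.7% of all genes with 1 probe set. Many of these markers have 1 probe set, and the lists were not split by that number. In the platelet, macrophage and dendritic, neutrophil and NK cell lists the counts were 0 of 10, 0 of 18, 0 of 11 and 0 of 8, and in the list for fibroblasts, endothelium and epithelium 1 of 18, Epcam at 189.8 ± 21.1. The Epcam call ended without probe sets of the shared kind and with the median over probe sets. Of the macrophage genes, Adgre1 read 39.7 on set 1 and 76.6 on set 2, and C1qa and C1qb read no more than 29.1 on either array. Csf1r, chosen after its values were seen, exceeded the bound on set 2 alone (57.3 on set 1 and 146.7 on set 2). The macrophage and dendritic list, with Itgam and Itgax counted, had a summed level of 497.6 on set 1 and 777.1 on set 2. In the B cell list 5 of 11 genes were above background, more than the share of all named genes. Their list had a summed level of 3868.7 on set 1 and 3400.6 on set 2. Ms4a1 was at 377 ± 17.4, Cd22 at 221 ± 10.04 and Cd79b at 165 ± 1.20, and Ighm, at 2372 ± 295, was above background by 3 of 11 probe sets. Not above background were Cd79a at 108 ± 14.1, Cr2 at 44.7 ± 10.7, Ebf1 at 37.6 ± 14.4 and Fcer2a at 41.95 ± 21.99. Of these Cd79a exceeded the bound on set 1 and not on set 2 (118.4 and 98.4). B cells also carry LFA-1, alpha4 integrins, kindlin-3 and Rap1, and the part of B cell RNA in these levels was not tested.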

How the data were processed

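The authors deposited 1 intensity value per probe set and array, on a linear scale as read from the values. Per the design text, complementary RNA was hybridised to 2 Affymetrix mouse 430 2.0 arrays, and per the labels the molecule was polyadenylated RNA with a biotin label. Genome build, scaling, probe summary and background correction: not given in the sources used here. Of 45101 probe sets 64 controls were left out. Of the rest 34945 had 1 symbol in the platform annotation, 932 several and 9160 none, and only the first were named. All 37 member genes matched the RefSeq gene table of GRCm38.p6 by Entrez identifier and 0 symbols changed.

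The bound was the 95th percentile over 56 probe sets of 41 off-tissue genes. Intensities under 1 were set to 1 before log2, and differences were centred on their median over probe sets above background (0.02). The number of arrays limits the precision. With 1 group no test between groups exists and no p-value is given. Members, lists and tests were chosen with earlier results of these data known. All members could be named. The 3 member probe sets most above and most below on set 2, and from each other list up to 4 genes of highest intensity above background and up to 4 not above it in alphabetical order, were named by rule. Alternatives to the bound, the level of a gene, the probe sets used and the centring were run. The calls were also checked on simulated data, in which present probe sets lay far above absent ones. That check cannot bear on calls near the bound. Python 3.11.15 with numpy 2.4.6, pandas 2.3.3 and matplotlib 3.10.9 was used.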

Additional observations from a re-analysis of the deposited data

How the results depend on the processing

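Prss2 gives 4 of the 5 brightest probe sets of the list that set the bound, so a bound without it (54.92 and 59.49) was added after seeing the data. It raised the member genes above background from 21 to 24, adding Icam1, Itga2b and Itga7, and the markers of other cell types from 6 to 13. Those markers numbered 11 with the bound at the 90th percentile (56 and 66.3) and 26 with the bound at the median of all probe sets. With the median over the probe sets of a gene, member genes fell to 14, losing Apbb1ip, Itga3, Itga4, Itgav, Itgb1, Itgb5 and Tln1, and pairs with both chains above background fell to 2. Without the filter on low values 23 member probe sets differed by over 1.5-fold instead of 1, as the low values spread more. Over the 10 alternatives to the calls, 14 member genes stayed above background, 10 stayed below and 13 changed in at least 1. On a single array 21 or 22 member genes and 9 pairs were above background. The fold count and the median difference need both arrays, so leaving out an array gave no value for them. No paired analysis was possible because there is 1 group.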
